A study of Mus musculus with 35 samples.

Results

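Microglia sorted from the cerebellum of mouse pups at postnatal day 8 (P8) were compared between mice lacking Csf1 in the neural lineage and their controls. The comparison holds 6 of the 35 libraries of the series, 3 of NesCre Csf1fl/fl pups and 3 of Csf1fl/fl pups, and every one of the 8539 genes in the deposited table of these libraries. Both groups carried the floxed Csf1 alleles, and the Cre transgene distinguished them. The series also sequenced forebrain microglia, 9-week adults and Il34 mutants. The P8 forebrain (3 NesCre and 3 control libraries) and the 9-week cerebellum (3 and 3) serve below as the nearest comparisons of the same genotypes.

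CSF1 is a secreted growth factor that binds the receptor tyrosine kinase CSF1R on microglia and other macrophages and sustains their survival and proliferation. IL-34 is the other ligand of that receptor. In the cerebellum, CSF1 is the more abundant of both ligands, whereas IL-34 is prominent in forebrain neurons. During the first postnatal week, microglia near developing white matter carry an activation program with Spp1, Clec7a, Itgax, Igf1 and Gpnmb, which overlaps the program of disease-associated microglia in the adult. The Nestin promoter drives Cre in neural progenitors and so in neurons, astrocytes and oligodendrocytes, but not in microglia or vessels, so Csf1 from those other cells remained in the mutants.

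The libraries held between 507917 and 1259164 reads in table genes, NesCre replicate 3 being the shallowest. Values are normalised read counts, and a value of 0.1 stands for 0 reads. The 8 microglial markers examined, among them P2ry12, Tmem119, Cx3cr1 and Trem2, were in the table. None of 4 neuronal or 3 erythroid markers was, while 2 of 5 endothelial and mural, 7 of 7 border macrophage and 5 of 5 neutrophil markers were. So were 3 of 5 astrocyte, 1 of 4 oligodendrocyte lineage, 1 of 3 monocyte and 1 of 5 lymphocyte markers. Csf1r was at 9574, 8989 and 8866 in the NesCre libraries and at 9186, 9772 and 9317 in the controls, which overlapped (log2 change -0.04 ± 0.11 SE, limma adjusted p = 0.944). Csf1 itself was at 52.6, 46.9 and 19.9 in NesCre microglia and at 70.7, 41.5 and 48.2 in control microglia, also overlapping (-0.49 ± 0.33, adjusted p = 0.687). Csf1 in the sorted cells is no check of the deletion, which Nestin-Cre makes in other cells. Il34 was not in the table.

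At a 5% false discovery rate over all genes (limma, adjusted p under 0.05), 4 genes fell and 30 rose in NesCre microglia. The total of 34 was 6 without NesCre replicate 2, 7 without control replicate 2, 12 without NesCre replicate 3 or control replicate 1, and 60 without control replicate 3. The 4 were 0.0468% and the 30 were 0.351% of the 8539 genes tested. None of the 34 is a predicted gene, and in each of them the 3 NesCre libraries lay wholly on one side of the 3 controls. Lack of overlap alone was common, with 7.61% of all genes wholly lower in NesCre and 6.77% wholly higher. The log2 changes of the genes that fell ranged between -2.88 and -0.63, and those of the genes that rose between 0.86 and 2.91. The median over all genes was -0.02. Genes entered the table by exceeding 10 in every library of a genotype. For 6 of the 30 that rose (Fance, Tvp23a, Donson, Pithd1, Foxo3 and Snx20) a control was at or under 10, so they passed through the NesCre libraries, where they are high, and their calls are a description.

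**Figure D1:**
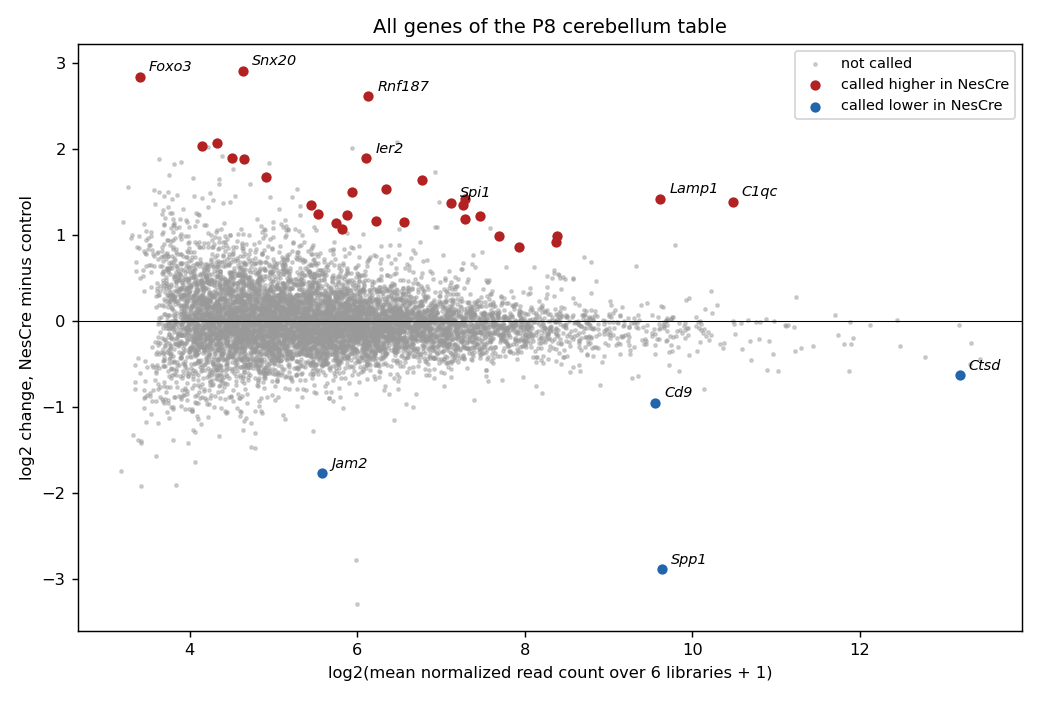
Log2 change, NesCre minus control, of every gene in P8 cerebellar microglia (vertical axis) against the log2 of its mean normalised read count plus 1 over the 6 libraries (horizontal axis); each point is a gene, red where called higher and blue where called lower. Spp1, Cd9 and Ctsd fell at high read counts, and the genes that rose, up to Snx20 at 2.91, span low to high counts.

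Spp1, which encodes the secreted matrix glycoprotein osteopontin, had the largest fall of the 4 genes. Its gene lies on the plus strand of chromosome 5 (GRCm38, 104435118 to 104441050). The 250 bases upstream of the first of its RefSeq starts (GRCm38.p6, plus strand, chr5:104434861-104435110) are shown because Spp1 had the largest fall. Capitals mark GAGGAA, the core that the myeloid factor PU.1 (the product of Spi1, described below) can bind. It was searched on both strands, with 1 match here and at least 1 match in 23.3% of the 32851 mouse promoters searched over the same length; the match describes letters and is no measured binding site. The window before a further RefSeq start of Spp1 (chr5:104435942-104436191) held 0 matches.
Spp1: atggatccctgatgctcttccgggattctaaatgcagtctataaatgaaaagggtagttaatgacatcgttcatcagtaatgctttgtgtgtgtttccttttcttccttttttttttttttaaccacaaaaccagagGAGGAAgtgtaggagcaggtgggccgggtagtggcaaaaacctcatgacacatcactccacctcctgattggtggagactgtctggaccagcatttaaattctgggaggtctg

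Spp1 was read at 263, 346 and 62.6 normalised counts in the NesCre libraries, against 1781, 950.2 and 1379 in the controls. The groups were far apart, and NesCre replicate 3, the shallowest library, was the lowest. The ratio of means was 0.164 (log2 change -2.88 ± 0.41 SE, adjusted p = 0.00461), and the call stood without any single library (adjusted p at most 0.0308). Cd9, a tetraspanin of the cell surface (chromosome 6, 125460266 to 125494791), was at 585, 445 and 505 in NesCre microglia and at 1170.1, 1011 and 798 in control microglia. The highest NesCre value lay under the lowest control (log2 change -0.95 ± 0.15, adjusted p = 0.00746). Ctsd, which encodes the lysosomal aspartic protease cathepsin D (chromosome 7, 142375911 to 142388038), was at 8410.1, 7579 and 6193 in NesCre libraries and at 11929, 11125 and 10946 in controls. The change was small but the controls were tightly grouped (-0.63 ± 0.12, adjusted p = 0.0334). Cd9 lost its call without NesCre replicate 2 (adjusted p = 0.0911) or without control replicate 1 (0.0617) or 2 (0.0875). Ctsd lost its call without NesCre replicate 2 (0.184) or 3 (0.0539), without control replicate 1 (0.179) or 2 (0.156), and under quantile normalization (log2 change -0.32, adjusted p = 0.168). Of the annotated exonic bases of Ctsd, 34.4% are shared with the same-strand gene Gm49369, which is not in the table, and 18.8% of those of Spp1 with the same-strand Gm42793, also not in it.

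Jam2, a junctional adhesion molecule made by endothelial cells among others (chromosome 16, 84774123 to 84825928), was at 22.4, 15.2 and 26.0 in NesCre libraries. The controls were at 72.2, 74.3 and 71.8, nearly identical to each other (log2 change -1.76 ± 0.26, adjusted p = 0.00461; 0.0537 without control replicate 2). The endothelial markers in the table, Cldn5 and Pecam1, were also lower in NesCre libraries. The tight junction gene Cldn5 was at 13.2, 2.16 and 6.20 in NesCre libraries and at 94.3, 11.7 and 248 in controls, and the endothelial adhesion gene Pecam1 at 18.5, 14.5 and 12.3 against 32.2, 27.1 and 49.2. Neither passed in limma (log2 changes -3.29 and -1.18, adjusted p = 0.0797 and 0.149), and Cldn5 did in edgeR (adjusted p = 0.0176). Among the controls Cldn5 differed widely between libraries in which Jam2 did not. Cldn5 had NesCre values under 10 and passed the filter only through the controls, where it is high, so its fall is a description. All 4 measured members of the endothelial and mural list of 18 had negative changes, beside 53.2% of all genes. Their summed level was 304 to 315 in NesCre libraries and 365 to 701 in controls. Both the count and the sum include Cldn5, so they are a description too. In the NesCre libraries most of that sum came from members other than Cldn5 and Pecam1, so it is no measure of endothelial RNA alone. Kdr, Flt1 and Rgs5 were not in the table. The part of endothelial RNA in the fall of Jam2 was not tested, and in bulk libraries fewer cells of a type cannot be told apart from less RNA per cell.

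**Figure D2:**
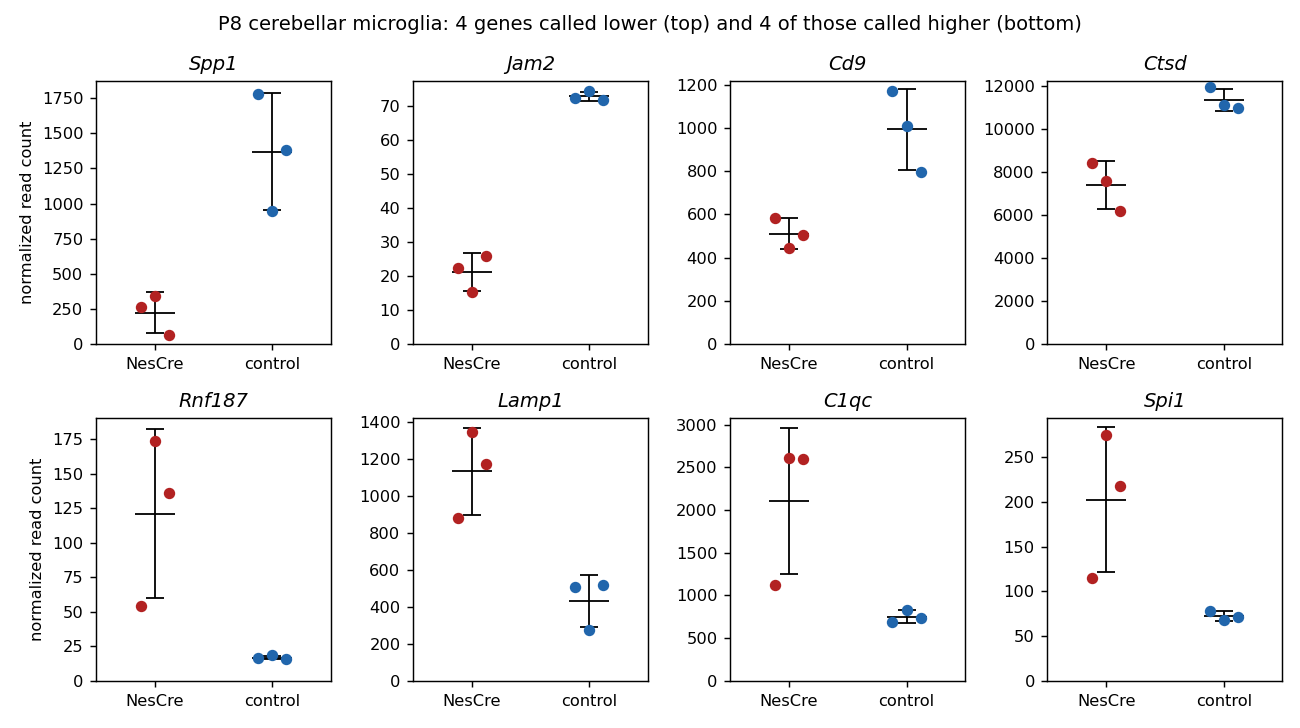
Normalised read counts (vertical axes, starting at 0) of the 4 genes called lower and of 4 genes called higher in P8 cerebellar microglia, NesCre libraries left and control libraries right. Points are libraries, the horizontal line is the mean and the bar is 1 SD (n = 3 each); NesCre replicate 1 was the lowest of the NesCre libraries for Rnf187, Lamp1, C1qc and Spi1, and no gene shown overlaps between groups.

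Spp1, Cd9 and Ctsd belong to a list of 36 genes of activated microglia, drawn from the disease-associated and postnatal axon-tract states, of which 35 were measured. These 3 fell and none rose. Negative changes were found in 27 of the 35, with a median log2 change of -0.44 beside -0.02 over all genes. All 3 NesCre libraries lay below all 3 controls for 17 of the 35 (48.6%, beside 7.61% of all genes), and above them for 1. The summed normalised count of the list was 29341 to 37073 in NesCre libraries and 44403 to 49302 in controls. The list median was negative under each of the 15 alternative settings (-0.50 to -0.24). The 50 genes with most reads in each library held 17.9% to 18.6% of table reads in NesCre libraries and 20.2% to 20.8% in controls. High genes as a class thus held a smaller share in NesCre libraries. The part of this in the list counts here and below was not tested.

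The members short of the threshold are given as values. The beta-glucan receptor Clec7a was at 40.2, 53.8 and 59.5 in NesCre libraries, against 182, 98.4 and 80.6 in controls (log2 change -1.15, adjusted p = 0.0804). The integrin Itgax, which encodes CD11c, was at 10.6, 10.4 and 19.9 against 29.3, 34.8 and 53.1 in controls (-1.47, adjusted p = 0.0879). In both genes the groups did not overlap. Further members, picked after their values were seen, were the growth factor Igf1 at 186, 241 and 195 in NesCre libraries and 407, 403 and 254 in controls (-0.75, adjusted p = 0.0966), and the cystatin Cst7 at 9.29, 9.04 and 7.72 against 25.8, 21.3 and 20.7 in controls (-1.28, adjusted p = 0.134). Gpnmb, a transmembrane glycoprotein of foamy and white-matter microglia, was also picked after its values were seen. It was at 34.2, 31.7 and 0.1 in NesCre libraries and at 183, 19.4 and 106 in controls, which overlapped through control replicate 2 (-2.77 ± 0.98, adjusted p = 0.318). Cst7 and Gpnmb each had a NesCre value under 10, so they passed the filter only through the controls, where they are high. Their falls are a description. Both are among the negative changes and in the summed count of the list, and Cst7 is among the 17 members wholly below the controls. Axl, a receptor kinase for apoptotic cells, ran the other way, at 125, 133 and 127 in NesCre libraries and 85.7, 68.5 and 62.9 in controls (0.83, adjusted p = 0.0676). With edgeR on the recovered reads, Clec7a and Axl passed (adjusted p = 0.0405 and 0.0419), and Itgax did not (0.0637).

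Genes of lipid handling lay mostly below the controls, and the list shares members with the activation list. None of the 18 measured genes of lipid efflux and of the sterol-sensing LXR receptors (22 listed) passed. Negative changes were found in 15 of them, the median was -0.33, and 9 lay wholly below the controls, beside 7.61% of all genes. Apoe, the main apolipoprotein of the brain, was at 9638, 9349 and 9047 in NesCre libraries and at 12995, 13350.4 and 11784 in controls, with no overlap (-0.44 ± 0.11, adjusted p = 0.101; edgeR 0.0497). Under quantile normalization its log2 change was -0.04. Abcg1, which exports cholesterol, was at 459, 469 and 488 in NesCre libraries, again wholly below the 849.7, 915 and 534 of controls (-0.66, adjusted p = 0.114). Lipoprotein lipase, Lpl, was at 422, 345 and 288 in NesCre libraries, the highest of which lay just under the lowest control (756, 622 and 422; -0.75, adjusted p = 0.114). Cholesterol synthesis genes had a median of 0.06 with 0 of 18 called.

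Lysosomal genes split. Of 41 measured hydrolases (45 listed), Ctsd fell and no other passed, and the median was -0.14 with 27 negative. The cysteine protease Ctsl was at 1913, 1409.7 and 1306 in NesCre libraries and at 2319, 2284 and 2136 in controls (-0.56, adjusted p = 0.0998). Ctsh, an aminopeptidase, lay wholly above the controls, at 389, 457 and 384 against 268, 279.5 and 315 in controls (0.51, adjusted p = 0.140). Among 30 measured genes of the lysosomal membrane and its proton pump (32 listed), Lamp1 rose and none fell, with a median of -0.18. Lamp1, an abundant glycoprotein of that membrane (chromosome 8, 13159161 to 13175338), was at 881, 1346 and 1174 in NesCre libraries and at 509, 273 and 516 in controls (1.42 ± 0.21, adjusted p = 0.00461; 0.0521 without NesCre replicate 2). Its relative Lamp2 overlapped between groups, with a log2 change of -0.24, and the macrophage lysosomal protein Cd68 changed by -0.38 (adjusted p = 0.339).

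Of 11 measured complement genes (18 listed), C1qc alone was called. C1q is built of 3 chains, whose genes C1qa, C1qc and C1qb lie side by side on the minus strand of chromosome 4 within 18675 bases. C1qc (136889804 to 136893065) was at 1118, 2605 and 2602 in NesCre libraries and at 688, 832 and 736 in controls (log2 change 1.39 ± 0.23, adjusted p = 0.0125). NesCre replicate 1 was well under the other NesCre libraries, and the call was lost without NesCre replicate 2 (adjusted p = 0.0945) or replicate 3 (0.0536), or without control replicate 1 (0.0617) or 2 (0.0744). C1qa was at 1704, 1595 and 1603 in NesCre libraries and at 1466, 1631 and 1759 in controls (0.02 ± 0.11). C1qb was at 3560.2, 3873 and 3899 in NesCre libraries and at 3435, 4059.7 and 3885 in controls (-0.00 ± 0.11). For C1qa and C1qb the groups overlapped and NesCre replicate 1 did not stand apart as it did for C1qc. Whether C1qc changed by more than its neighbours was not tested as a difference.

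Spi1, which encodes PU.1, the transcription factor that sets macrophage identity (chromosome 2, 91082390 to 91115756), was at 115, 274 and 218 in NesCre libraries and at 78.6, 68.5 and 70.8 in controls. The order of the NesCre libraries was that of Rnf187, with replicate 1 lowest and replicate 2 highest (1.38 ± 0.25, adjusted p = 0.0207). The call was lost without NesCre replicate 2 (0.139) or 3 (0.0798), or without control replicate 1 (0.0578) or 2 (0.130). It was the single called gene among 25 measured myeloid transcription factors (34 listed, median -0.11). Sall3, a zinc-finger factor, lay wholly below the controls at 54.0, 57.9 and 58.0 against 95.0, 79.1 and 92.4 (-0.64, adjusted p = 0.213). Rnf187 (chromosome 11, 58932288 to 58938916), which encodes a ubiquitin ligase, had the smallest p of all genes. It was at 54.0, 173 and 136 in NesCre libraries and at 16.5, 18.4 and 15.8 in controls, a ratio of means of 7.16 (2.61 ± 0.34, adjusted p = 0.00461).

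The other genes that rose serve varied functions. Eif3f, a subunit of the translation initiation factor eIF3, was at 210.3, 249 and 217 in NesCre libraries and at 101, 61.8 and 93.4 in controls (1.42 ± 0.19, adjusted p = 0.00461). Rps2, a protein of the small ribosomal subunit, was at 193, 282 and 188 in NesCre libraries and at 88.6, 72.4 and 94.3 in controls (1.35 ± 0.19, adjusted p = 0.00461). Spp1, Rnf187, Eif3f and Rps2 were the 4 genes that kept their call without any single library. Rps2 has processed copies elsewhere in the genome between which reads can be split, and of 68 measured ribosomal protein genes (72 listed) it alone was called, the median of the 68 being 0.00. Lsm4, of the complex that binds U6 RNA and decapped messages, rose by 1.68 on the log2 scale and Clptm1, a multipass membrane protein, by 1.64. The proteasome subunit Psmd3 was at 89.4, 103 and 71.7 in NesCre libraries, again above the 35.8, 17.4 and 43.3 of controls (adjusted p = 0.0334).

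Rac1, the GTPase that drives membrane ruffling, was at 287, 528 and 527 in NesCre libraries and at 213, 239 and 198 in controls (0.99 ± 0.20, adjusted p = 0.0334). Sipa1 and Arhgap9, which inactivate small GTPases, rose by 1.22 and 1.23 (log2), and Itsn2, an endocytic scaffold, by 1.15. Bin1, a membrane-curving protein expressed by homeostatic microglia, was at 421, 433 and 428 in NesCre libraries and at 269.8, 163 and 260.2 in controls (0.92 ± 0.17, adjusted p = 0.0265). Snx20, a sorting nexin of leukocytes, was at 42.8, 35.2 and 45.8 in NesCre libraries and at 5.09, 1.06 and 12.9 in controls (2.91 ± 0.52, adjusted p = 0.0207). Sh2b3, an adaptor that restrains cytokine receptor signalling, rose by 1.15, the kinase Camk1 by 1.18 and Lsp1, an actin-binding protein of leukocytes, by 0.86. The syndecan Sdc3 rose by 1.16, choline kinase Chka by 1.24, and Ppp1r12c, a myosin phosphatase subunit, by 1.35.

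Ier2, an immediate early gene, was at 88.1, 108 and 124 in NesCre libraries and at 17.2, 29.0 and 42.3 in controls (1.89 ± 0.28, adjusted p = 0.00461). It was the single called gene among 21 measured immediate early and heat shock genes (28 listed). Jun had a log2 change of 0.07 ± 0.12, and Egr1 lay wholly below the controls (-0.31, adjusted p = 0.462). Foxo3, a transcription factor held inactive by PI3K and AKT signalling, was at 17.2, 13.2 and 21.4 in NesCre libraries and at 3.67, 0.1 and 2.06 in controls. These are few reads, and the fold change depended on the pseudocount (log2 change 2.84, adjusted p = 0.0251 at a pseudocount of 1; 3.85 and 0.0714 at 0.1). The remaining genes that rose, with their log2 changes, were glutamate dehydrogenase Glud1 (0.99), the nuclear protein gene Irf2bpl (1.07), the lysosomal phospholipase-like Plbd2 (1.53), the Fanconi anaemia gene Fance (1.88), the Golgi membrane gene Tvp23a (1.90), the replication fork gene Donson (2.04) and Pithd1 (2.07).

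Annotated neighbours touch some of these genes. Rac1 shares 51.4% of its exonic bases with Daglb on the opposite strand. Daglb, looked up because of that overlap, was at 339.6, 334 and 398 in NesCre libraries and at 466, 463 and 395 in controls (-0.30), the opposite direction to Rac1. Tvp23a shares 33.8% of its exonic bases with the opposite-strand Nubp1. Nubp1 was at 45.4, 61.3 and 50.4 in NesCre libraries and at 20.1, 9.74 and 31.5 in controls (1.45, adjusted p = 0.0989), the same direction as Tvp23a. The strand setting of the read counting is not given in the sources used here, so reads from these overlaps cannot be assigned to a strand.

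Most genes that rose had GC-rich transcripts. Their annotated transcripts had a median GC content of 57.6%, with 26 of the 30 above the median of all genes (49.3%), and 18 of them among the genes above 55.0%. The 4 genes that fell had a median of 45.8%. Over all genes the median log2 change was between -0.09 and 0.03 in each of 5 equal bins of GC content, lowest in the bin of lowest GC content. After a correction for GC content in every library, 34 genes passed, 26 higher and 8 lower, and 28 of the 34 original calls were among them (24 higher, 4 lower). The genes that lost their call were Irf2bpl, Sh2b3, Sdc3, Ppp1r12c, Lsm4 and Fance (adjusted p 0.0508 to 0.0724). Their log2 changes were 0.94 to 1.73 after the correction and 1.07 to 1.88 before it.

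**Figure D3:**
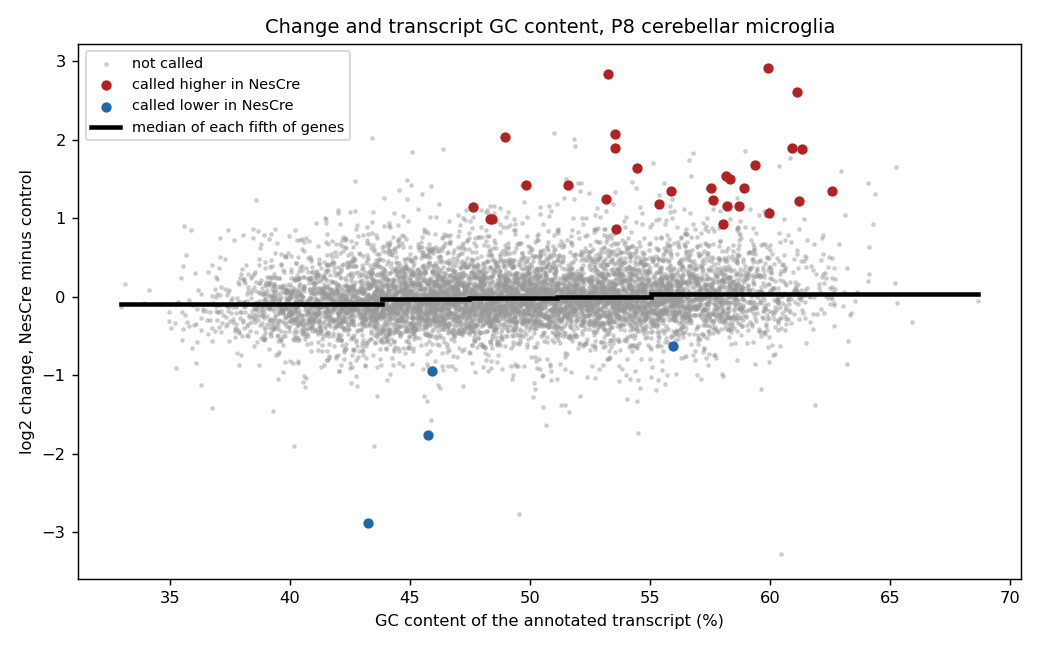
Log2 change, NesCre minus control (vertical axis), against the GC content of the annotated transcript in percent (horizontal axis) for each gene of the P8 cerebellum table; black bars are the medians of 5 equal bins of genes by GC content. Most genes called higher lie to the right of the median GC content of 49.3%, while the black bars stay between -0.09 and 0.03.

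Among homeostatic genes Bin1 rose and no other passed. Of 29 listed and measured, 25 had negative changes (median -0.18) and 11 (37.9%, beside 7.61% of all genes) lay wholly below the controls. The list median was between -0.22 and -0.04 under the alternative settings, nearest to 0 with quantile normalization. P2ry12, the purinergic receptor that steers microglial processes, was at 2980.3, 2687 and 3312 in NesCre libraries and at 4472, 5258 and 3753 in controls, with no overlap (-0.58 ± 0.13, adjusted p = 0.0797; edgeR 0.0497; log2 change -0.34 under quantile normalization). The orphan receptor Gpr34 was at 1375, 1321 and 1517 in NesCre libraries, again wholly below the 1908, 2182 and 1678 of controls (-0.45, adjusted p = 0.157). The microglial transcription factor Sall1 and Tgfbr1 had smaller changes (-0.25 and -0.11), and Tgfbr2, the other chain of the transforming growth factor beta receptor, lay wholly above the controls at 396, 389 and 374 against 248, 254 and 286 (0.56, adjusted p = 0.0905).

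The receptor's own pathway showed no call. Among 21 measured genes of CSF1R ligands, receptor and adaptors (25 listed), 0 passed in limma and the median was -0.01, and among 7 measured feedback targets of MAPK and PI3K signalling (19 listed) 0 passed, with a median of -0.13. Dusp6, a phosphatase induced by ERK, was at 537, 549.8 and 543 in NesCre libraries and at 592, 619.7 and 625 in controls (-0.17, adjusted p = 0.691). None of 40 cell cycle genes passed. Top2a, of dividing cells, was at 256, 252 and 168 in NesCre libraries and at 260.5, 254 and 182 in controls, overlapping (-0.05), and cyclin B1, Ccnb1, lay wholly below the controls (62.5, 71.0 and 59.5 against 129, 98.4 and 74.7; -0.61, adjusted p = 0.319). Of 17 measured genes of apoptosis and survival, 0 passed (median 0.02).

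**Figure D4:**
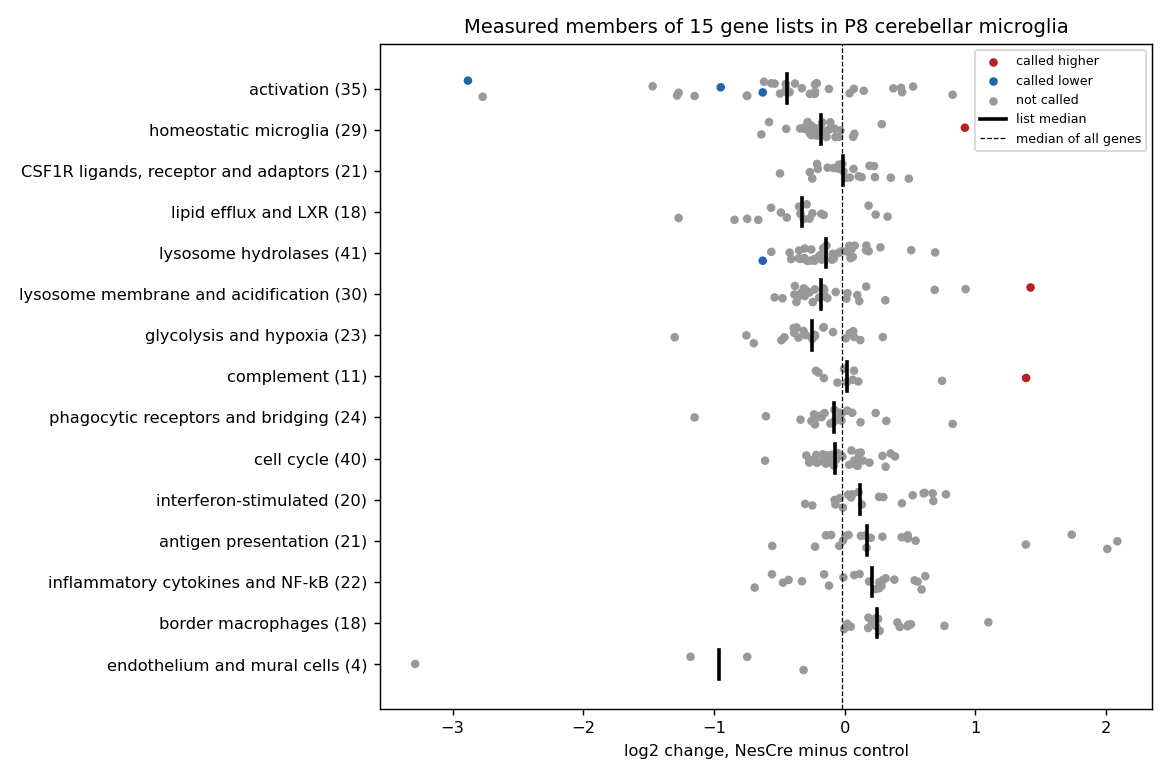
Log2 change, NesCre minus control (horizontal axis), of each measured member of 15 gene lists (rows, number of measured members in brackets) in P8 cerebellar microglia; thick bars are list medians and the dashed line is the median of all genes. The activation list has its median at -0.44 with Spp1, Cd9 and Ctsd called lower, while the border macrophage list lies almost wholly to the right of 0 with no member called.

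Markers of border macrophages, which line meninges and vessels and can enter a microglial sort, had positive changes in 17 of 18 measured members (median 0.25), and 0 passed. Their summed level was 3319 to 5091 in NesCre libraries and 2498 to 3973 in controls, which overlapped, with NesCre replicate 2 the highest and control replicate 3 the lowest. The scavenger receptor Cd163 was at 98.0, 223 and 160.1 in NesCre libraries and at 119, 109 and 26.6 in controls (1.10, adjusted p = 0.359). Antigen presentation genes, which these macrophages also express, had a median of 0.17 with 0 of 21 called. The MHC class II chaperone Cd74 was at 151, 277 and 99.2 in NesCre libraries and at 101, 11.7 and 87.5 in controls (1.74, adjusted p = 0.236), with control replicate 2 far below the rest. Neutrophil markers were highest in control replicate 3, at a sum of 1704 against 628 to 967 in NesCre libraries and 545 to 558 in the other controls. The part of these cells in the changes was not tested.

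The same genotypes in the P8 forebrain gave no called gene. There limma called 0 of 9612 genes, with 421 at an unadjusted p under 0.05. The values of the called genes nevertheless leaned one way. Of the 30 genes that rose in the cerebellum, 29 were in the forebrain table, and 28 of those had positive changes there (median 0.62, highest 1.84 in Snx20), beside 47.3% of all forebrain genes. The exception was Itsn2 (-0.11). Snx20 had few reads in the forebrain, at 19.3, 12.3 and 13.7 in NesCre libraries and 1.05, 0.902 and 21.0 in controls, which overlapped. Genes of the same libraries are not independent units, so the count of 28 carries no test. The titles of the libraries do not say whether cerebellum and forebrain came from the same pups. Of the 4 genes that fell, Jam2, Cd9 and Ctsd had small negative changes (-0.22, -0.19 and -0.18). Spp1 in the forebrain was at 276, 366 and 18.6 in NesCre libraries and at 132, 93.2 and 86.3 in controls, which overlapped through the low NesCre replicate 3 (0.29 ± 0.62).

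The difference between the cerebellar and the forebrain effect was tested for 8400 genes in both tables, and limma called 0 of them (0% of those tested), with 377 at an unadjusted p under 0.05 and 0 called by edgeR. The difference was -3.17 ± 0.90 SE for Spp1 (adjusted p = 0.998). It passed in 1 of 12 limma fits that each left out a library, the one without the low forebrain NesCre replicate 3 (-4.51, adjusted p = 8.31e-05). In the others the adjusted p was at least 0.778. The smallest p-values belonged to Itsn2 (1.26), Rnf187 (2.16) and Skp2 (1.68) on the higher side and to Jam2 (-1.55), Fmr1 (-1.38) and Spp1 on the lower.

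**Figure D5:**
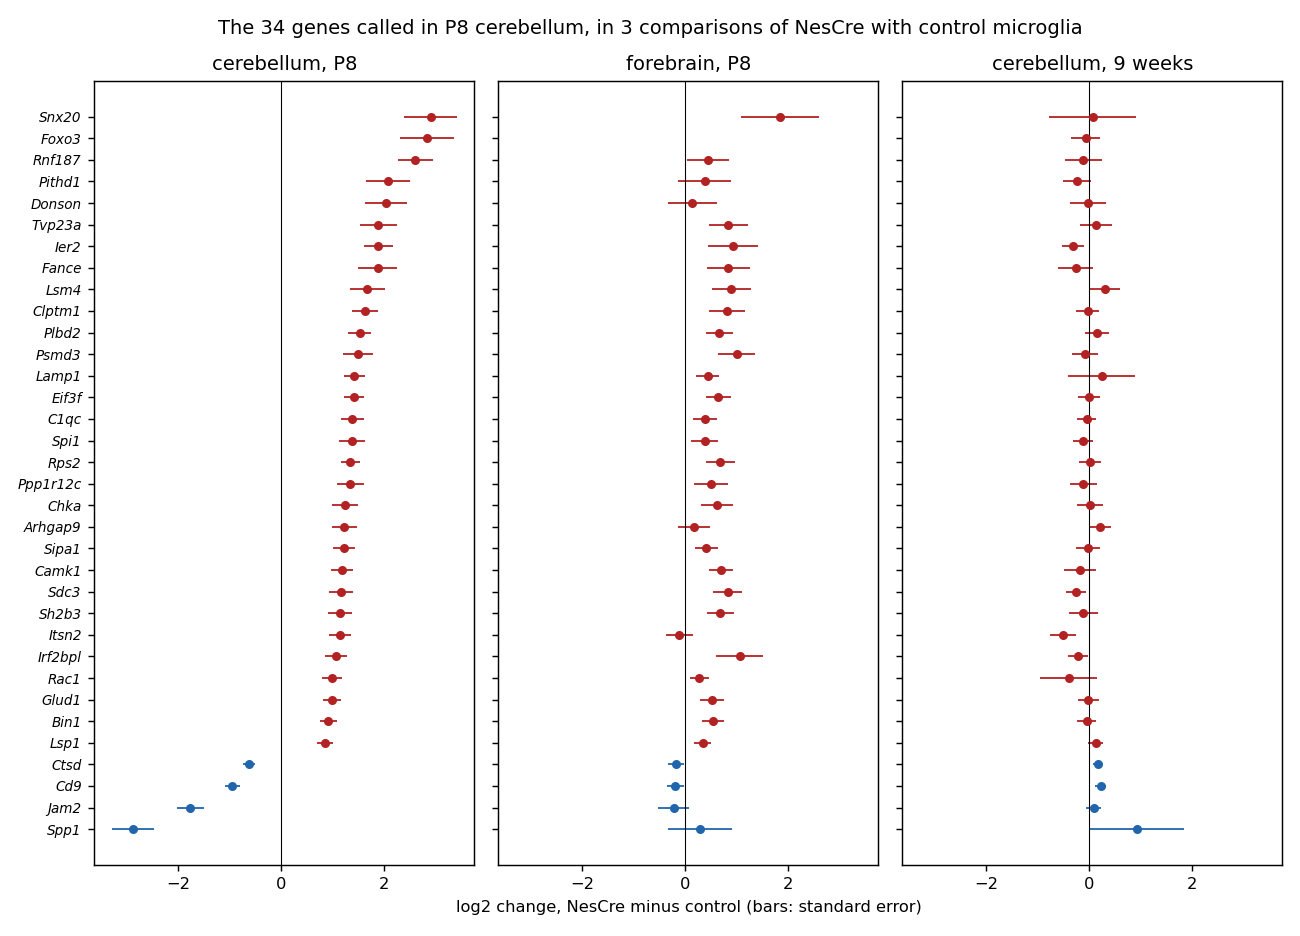
Log2 change, NesCre minus control (horizontal axes), of the 34 genes called in P8 cerebellar microglia, in cerebellum and forebrain at P8 and in cerebellum at 9 weeks; bars are standard errors, red marks genes called higher and blue genes called lower in the P8 cerebellum. Most red points lie right of 0 for the P8 forebrain (28 of 29) and around 0 at 9 weeks (9 of 30 positive), and Foxo3 has no forebrain value.

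In the cerebellum of adults at 9 weeks, 0 of 9670 genes were called by limma, with 408 at an unadjusted p under 0.05. The 30 genes that rose at P8 had positive changes in 9 cases and a median of -0.05, and the 4 that fell had positive ones there (0.09 to 0.94, the highest in Spp1). Some of the 30 varied widely within a genotype in adults. Lamp1 was at 1624, 1938 and 615 in adult NesCre libraries and at 2721, 220 and 1924 in adult controls. Lamp1, Rac1 and Snx20 were each lowest in NesCre replicate 4 and in control replicate 2 of their genotypes, while Lsp1 varied less. The cause of this spread was not tested. The difference between the P8 and the 9-week effect was tested for 8205 genes, and 3 (0.0366%) passed. Jam2 in adult cerebellar microglia was at 203, 205 and 199 in NesCre libraries and at 210.3, 187 and 175 in controls, so that the effects differed by -1.85 ± 0.27 SE (adjusted p = 0.00597), and this held without any single library. Cd9 was at 2055, 2361 and 2596 in adult NesCre libraries and at 1935, 1933 and 2087 in adult controls (difference -1.18 ± 0.19, adjusted p = 0.00971). Ier2 was at 346, 525 and 271 in adult NesCre libraries and at 446, 351 and 605 in adult controls (difference 2.21 ± 0.37, adjusted p = 0.0133). Ctsd just missed (-0.80, adjusted p = 0.0507). Adult Spp1 was low in every library, at 24.0, 16.4 and 15.9 in NesCre and 0.1, 23.3 and 37.8 in controls, and its difference did not pass (-3.82 ± 1.10, adjusted p = 0.249). The tables were normalised separately, so levels are not compared between ages.

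The activation list as a whole had medians of -0.44 for cerebellum and -0.19 for forebrain at P8, and of 0.21 for cerebellum at 9 weeks, with 27 of 35, 24 of 34 and 7 of 34 members negative. The lipid list had medians of -0.33, -0.12 and 0.24 in the same order. These list medians carry no test of a difference between ages or regions.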

How the data were processed

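RNA of sorted microglia was sequenced with an ultra-low-input protocol, per the labels. Reads were aligned with STAR 2.5.3 to mm10 and counted with featureCounts, per the submitters' processing notes; the annotation release and strand setting are not given in the sources used here. What the authors deposited is a normalised signal: each gene's reads are scaled by a library factor, and 0.1 is added. In every column used 100% of values came out as whole reads once this was undone (tolerance 0.01). The scaling method has no stated source. All 8539 genes of the P8 cerebellum table exceed 10 in each library of one genotype or the other, and genes silent in both genotypes were not analysed here. A total of 15 gene names that a spreadsheet had turned into dates were tested but not named. The series' design text calls the samples biological replicates; where they were not separate animals, p-values measure only the spread between these samples.

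From these, log2(value + 1) was fitted with limma-trend (limma 3.58.1, R 4.3.3), NesCre minus control, two-sided; p-values were adjusted by Benjamini and Hochberg's method across the whole table, with 0.05 as threshold. Fits used the 6 libraries with no covariate. Differences between effects came from 1 fit over the genes in both tables, as the difference of the log2 changes. Log2 changes understate the change of low genes. Named genes are all called genes, up to 6 of the smallest p and 3 of the highest mean per list, the genes leading each difference, Csf1, Il34 and Csf1r; other genes (Igf1, Cst7, Gpnmb, and Daglb and Nubp1 for their overlap) were picked after their values were seen. The comparison, the 35 gene lists and the tests were chosen with earlier results of these data known. Gene positions and transcript GC content are from GENCODE vM21 (GRCm38), which held 95.7% of the symbols. Alternatives were edgeR 4.0.16, DESeq2 1.42.0 and voom on the recovered reads, quantile normalization, a pseudocount of 0.1, a mean of at least 50, GC correction, a replicate block and leaving out each library. The scripts were tested on simulated data.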

Additional observations from a re-analysis of the deposited data

Results flagged for a closer look

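Jam2, Cd9 and Ier2 differed between the P8 and the 9-week cerebellum in how they changed with Csf1 loss, by the limma test of the difference itself. The differences of the log2 changes, P8 minus 9 weeks, were -1.85 for Jam2, -1.18 for Cd9 and 2.21 for Ier2. Over 12 fits that each left out a library, the difference of Jam2 passed in 12 (adjusted p at most 0.0369), that of Cd9 in 10 and that of Ier2 in 7. Cd9 missed without 9-week NesCre replicate 4 (0.0754) or P8 NesCre replicate 2 (0.0655). Ier2 missed without 9-week NesCre replicate 1 (0.0750) or 4 (0.0851), 9-week control replicate 3 (0.129), or P8 NesCre replicate 2 (0.0655) or 3 (0.0786). The groups hold 3 libraries each, too few to test for a single library standing apart.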

How the results depend on the processing

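The 34 calls (30 higher, 4 lower) were all among those of edgeR (52; 41 higher, 11 lower), DESeq2 (69; 50 and 19) and voom with quality weights (69; 49 and 20). Quantile normalization gave 36 and a pseudocount of 0.1 gave 32, with 32 of the 34 in each, and a mean of at least 50 gave 27 of 3672 genes. GC correction gave 34 with 8 lower. Deviations of same-numbered NesCre and control libraries had an r of 0.07, -0.01 and 0.09, beside -0.12 to 0.08 for differently numbered ones. Such low values cannot tell whether the numbers pair the libraries. A replicate block gave 47 calls with 13 lower, 32 of the 34 among them, and the block with GC correction 56 with 15 lower. Leaving out 1 library gave 6 to 60 calls, 3 to 40 higher and 2 to 20 lower: 31 without NesCre 1, 6 without NesCre 2, 12 without NesCre 3, 12 without control 1, 7 without control 2 and 60 without control 3. No called gene changed direction under these alternatives. The difference from the forebrain gave 0 to 1 calls without a library. It gave 4 with a replicate block of same-numbered libraries from both regions, in which the unnumbered forebrain control and cerebellar control 3 had no partner and so no weight. For same-numbered libraries of both regions, r was -0.02, 0.05 and 0.17 in NesCre and -0.02 and 0.03 in controls. These values cannot tell either whether the numbers pair the libraries. The difference from 9 weeks gave 11 under quantile normalization, 16 with edgeR, 5 at a mean of at least 50 and 1 to 52 without a library: 52 without 9-week control 2, 18 without P8 control 3, 15 without P8 NesCre 1 and 1 without P8 NesCre 2 or 9-week NesCre 4. The cause of these shifts was not tested. At 507917 to 1259164 reads, genes of few reads such as Foxo3 are the least certain.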

Other observations

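Genes of glycolysis and hypoxia, which carry the response to low oxygen and glucose use, were mostly lower in NesCre microglia of the P8 cerebellum, with 17 of 23 measured members negative, a median of -0.25 and 0 called by limma. Bnip3, a mitochondrial protein induced by hypoxia, was at 64.5, 60.6 and 51.9 in NesCre libraries and at 92.1, 88.7 and 121 in controls (-0.75, adjusted p = 0.139). Hif1a, the oxygen-regulated transcription factor, was at 172, 101 and 163 in NesCre libraries and at 261, 201 and 229.8 in controls (-0.70, adjusted p = 0.171), and the glucose transporter Slc2a1 at 20.5, 20.7 and 6.20 against 46.5, 38.6 and 25.6 in controls (-1.30, adjusted p = 0.234). The groups did not overlap in these 3 genes, and 7 of the 23 lay wholly below the controls, beside 7.61% of all genes. With a NesCre value under 10, Slc2a1 passed the filter only through the controls, where it is high. Its fall, which is counted among the 7, is thus a description. Slc2a1 is also expressed by endothelial cells, whose markers were lower in NesCre libraries. The part of those cells was not tested. In the respiratory chain, 31 of 42 genes were negative (median -0.08).

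Ccl9, a chemokine, lay wholly below the controls, at 110.4, 94.3 and 129.6 in NesCre libraries and 189, 173 and 133 in controls (-0.56, adjusted p = 0.264), and its neighbour Ccl6 overlapped through control replicate 3 (-0.69, adjusted p = 0.173). The list of inflammatory cytokines and NF-kB genes had a median of 0.21 with 14 of 22 positive, and interferon-stimulated genes one of 0.12 with 14 of 20 positive. Neither had a called member. The potassium channel Kcnk6 was at 118, 137 and 166 in NesCre libraries and at 95.7, 67.6 and 93.4 in controls (0.71, adjusted p = 0.155), while purine and ion sensing genes as a list had a median of 0.08. Phagocytic receptors and their bridging proteins had a median of -0.08 with 18 of 24 negative, adhesion and matrix genes one of -0.11, autophagy genes -0.01, unfolded protein genes -0.05, TGF-beta signalling genes -0.09 and FOXO genes 0.01, where Foxo3, which passed the filter through its NesCre libraries, was called. Spp1, Jam2 and Cd9 are the called members of the adhesion list. Astrocyte markers had a median of -0.16 over 10 measured, oligodendrocyte markers 0.09 over 3 and monocyte markers 0.41 over 5, with no member called. Of 20 lymphocyte markers 2 were measured.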
